A study of Mus musculus with 12 samples.

Results

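*Trp73*, *Calb2*, *Cdkn1a* and *Tmem163* were 4 of the 4859 coding genes in the deposited table. They were chosen by name, as Cajal-Retzius (CR) neuron markers whose levels in Ebf2-EGFP+ cells were lower at E13.5, or lower at both stages after E11.5. That choice used the Ebf2-EGFP+ values themselves, so the stage changes of these genes in Ebf2-EGFP+ cells are given below as a description, without a test. The Ebf2-EGFP- libraries were not used in the choice and were tested over stages.

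The study profiled the early neurons of the mouse cerebral cortex in the transgenic line Tg(Ebf2-EGFP)FB58Gsat, in which EGFP under the control of *Ebf2* regulatory sequence marks preplate neurons and then persists in CR neurons. Cortical cells of EGFP-carrying embryos were sorted by FACS into an Ebf2-EGFP+ and an Ebf2-EGFP- population at 3 stages (E11.5, then E13.5 and then E15.5), and polyadenylated RNA of 2 preparations per population and stage was sequenced, which gave 12 libraries in 6 groups. Both populations carried the transgene, no other allele or treatment was named, and embryos of several mice were pooled for each preparation. Following the study's description, the Ebf2-EGFP+ cells were a mixture of subplate and CR neurons at E11.5 and CR neurons by E15.5, while the Ebf2-EGFP- cells were mostly progenitors at E11.5 and also held cortical plate neurons later.

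CR neurons are early-born cells of the cortical surface that secrete reelin, the glycoprotein that guides migrating cortical neurons into layers, and most of them die after birth. *Trp73* encodes p73, a transcription factor of the p53 family that is needed for CR neurons to form and survive, and the p53 family acts on target genes through paired DNA elements. *Cdkn1a*, which encodes p21, a cyclin-dependent kinase inhibitor that holds cells out of the cycle, is a classical target of that family. *Calb2* encodes calretinin, an EF-hand protein that buffers calcium and is widely used to stain CR neurons, and *Tmem163* encodes a zinc-transporting membrane protein.

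Levels of CR markers were set side by side in the populations. Of 19 CR markers, 18 were in the table (*Cxcr4* was not listed). Their summed level at E11.5 was 918 to 995 FPKM in Ebf2-EGFP+ libraries, against 170 to 175 FPKM in Ebf2-EGFP- libraries. FPKM are fragments scaled by transcript length and by the mapped fragments of the library. At E13.5 the sums were 499 to 540 against 117 to 125 FPKM, and at E15.5 869 to 1493 against 86.1 to 119.8 FPKM. The sum holds the 4 members and *Ebf2*, whose regulatory sequence drives EGFP, and the table lists genes chosen for this difference. A higher sum was thus largely fixed in advance and does not measure purity. *Reln*, the reelin gene, measured 76.1, 155.9 and 662 FPKM on average in Ebf2-EGFP+ cells at the 3 stages and 2.89, 3.50 and 12.2 FPKM in Ebf2-EGFP- cells. Replicate libraries correlated across genes at Pearson's r between 0.981 and 0.992. The table held only genes that the authors had selected as different between the populations, so shares of genes given below are shares of that list and not of all expressed genes. Fragment counts were not given, and the depth behind each value is unknown here.

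The members lie on 4 chromosomes of GRCm38, the assembly named mm10 in the authors' processing. *Trp73* spans chr4:154056253-154140208 on the minus strand with 7 annotated transcripts, and a gene-level FPKM does not separate its full-length forms from its N-terminally truncated forms. *Calb2* spans chr8:110137502-110168210 (minus strand), *Cdkn1a* spans chr17:29090976-29100727 (plus strand) and *Tmem163* spans chr1:127486546-127679548 (minus strand).

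Promoter sequence is shown for *Cdkn1a* and *Trp73* because the first is a known target of the family to which the second belongs, and both held a match to the p53 response element, a pair of adjoining decamers. The windows were the 250 bases before each RefSeq start site (GRCm38.p6), 5 windows in all for *Trp73*, *Cdkn1a* and *Tmem163*. Matches lay only in the windows shown, and the other window of *Trp73* and that of *Cdkn1a* held none. In the 240 bases printed here, capitals mark the match, and the bases next to the start site are left out.
Cdkn1a, upstream start, chr17:29090729-29090968, plus strand: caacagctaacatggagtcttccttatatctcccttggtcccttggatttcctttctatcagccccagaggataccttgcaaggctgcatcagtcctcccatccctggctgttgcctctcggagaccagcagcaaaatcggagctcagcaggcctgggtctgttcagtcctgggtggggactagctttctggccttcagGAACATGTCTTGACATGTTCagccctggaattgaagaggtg
Trp73, internal start, chr4:154097184-154097423, minus strand: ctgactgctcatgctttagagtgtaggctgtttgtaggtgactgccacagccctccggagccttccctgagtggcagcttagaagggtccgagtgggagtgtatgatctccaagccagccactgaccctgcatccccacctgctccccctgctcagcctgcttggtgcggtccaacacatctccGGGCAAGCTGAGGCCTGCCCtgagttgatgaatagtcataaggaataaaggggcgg

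The *Cdkn1a* match, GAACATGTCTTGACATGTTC, lay 51 to 32 bases before the start and departed from the p53 element at 1 position. The *Trp73* match, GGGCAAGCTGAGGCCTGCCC, lay 66 to 47 bases before an internal start inside an intron of the longer transcripts and departed at 2 positions. Searched on both strands with the C and G of each decamer's core required and up to 2 other mismatches, such an element occurred in 89 of 32851 windows of the same length, 0.271% of them, and without a mismatch in 3 windows (0.00913%). The pattern CCCNNGGG, the palindromic core bound by EBF factors, occurred in 11.8% of windows and in none of the 5 windows read for the members. The patterns and the allowance of 2 mismatches were chosen after the windows had been seen, and a match describes letters, not binding.

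In Ebf2-EGFP+ cells all 4 genes were lower at E13.5 than at E11.5, and they parted afterwards. *Trp73* and *Calb2* were back near or above their E11.5 level at E15.5, *Tmem163* came back in part, and *Cdkn1a* stayed low. In a bulk library, fewer cells of a type and less RNA per cell cannot be told apart, and this holds for every level given below.

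*Trp73*, the p53-family transcription factor, measured 32.7 and 36.9 FPKM in the 2 Ebf2-EGFP+ libraries at E11.5, 12.9 and 11.98 FPKM at E13.5, and 41.9 and 54.6 FPKM at E15.5. Libraries of different stages did not overlap, with E15.5 the highest and E13.5 the lowest. The group means were 34.8 ± 2.92, 12.4 ± 0.616 and 48.2 ± 9.02 FPKM (SD, n = 2). The E13.5 mean was 35.7% of the E11.5 mean, a difference of -1.41 on the log2(FPKM + 1) scale with a standard error of 0.19, and the E15.5 mean was 138.6% of it.

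*Cdkn1a*, the p21 gene, measured 36.4 and 29.0 FPKM at E11.5, 9.08 and 3.68 FPKM at E13.5, and 9.59 and 5.51 FPKM at E15.5 in Ebf2-EGFP+ libraries. Both E11.5 libraries stood above all the later ones, and the E13.5 and E15.5 libraries overlapped. The means were 32.7 ± 5.23, 6.38 ± 3.82 and 7.55 ± 2.89 FPKM (SD, n = 2), so that E13.5 stood at 19.5% and E15.5 at 23.1% of E11.5. The log2 differences from E11.5 were -2.29 and -2.01, each with a standard error of 0.34. Replicate 2 was the lower library at all 3 stages, and the difference between E15.5 and E13.5, 0.27, was smaller than its standard error.

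*Calb2*, the calretinin gene, measured 65.9 and 51.2 FPKM at E11.5, 16.3 and 13.2 FPKM at E13.5, and 40.8 and 56.5 FPKM at E15.5 in Ebf2-EGFP+ libraries. The E13.5 libraries lay below all others, while the E11.5 and E15.5 libraries overlapped. The means were 58.5 ± 10.4, 14.8 ± 2.16 and 48.6 ± 11.1 FPKM (SD, n = 2). On the log2 scale the E13.5 level was 1.91 below E11.5 (standard error 0.21) and the E15.5 level was 1.64 above E13.5, which left E15.5 at 83.1% of E11.5.

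*Tmem163*, the zinc transporter gene, measured 65.2 and 52.5 FPKM at E11.5, 10.4 and 8.61 FPKM at E13.5, and 15.7 and 29.0 FPKM at E15.5 in Ebf2-EGFP+ libraries. No libraries of different stages overlapped, with E11.5 the highest and E13.5 the lowest. The means were 58.8 ± 8.997, 9.53 ± 1.30 and 22.3 ± 9.42 FPKM (SD, n = 2), so the E13.5 mean was 16.2% of the E11.5 mean, a log2 difference of -2.50 (standard error 0.25). The E15.5 mean was 38.0% of the E11.5 mean, and its 2 libraries lay further apart than those of E13.5, both on the log scale and in FPKM.

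**Figure D1:**
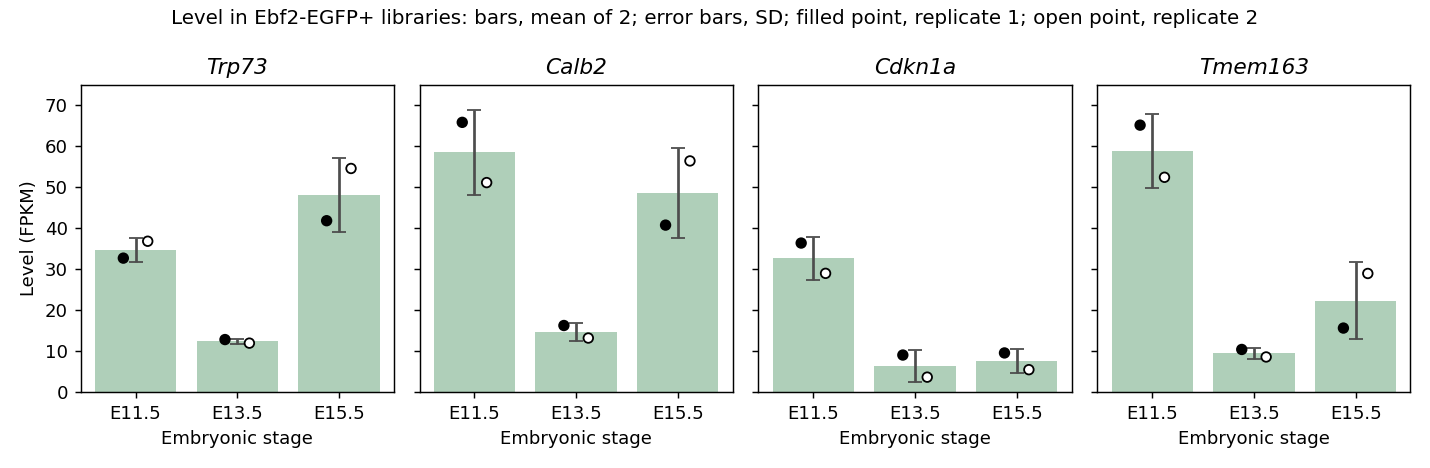
Level in FPKM of each member in the Ebf2-EGFP+ libraries by embryonic stage, with bars for the mean of 2 libraries, error bars for the SD, filled points for replicate 1 and open points for replicate 2. At E13.5 every library of the 4 genes sat below both E11.5 libraries, and at E15.5 *Trp73* reached 41.9 and 54.6 FPKM while *Cdkn1a* stayed at 9.59 and 5.51 FPKM.

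Both E13.5 libraries lay below both E11.5 libraries for 52.4% of the 4859 listed genes, and below the E11.5 and E15.5 libraries together for 13.1%. *Trp73*, *Calb2* and *Tmem163* were in the second set and *Cdkn1a* was not, as the choice of members fixed in part. Ranked by the ratio of E13.5 to E11.5 among the 2689 genes with at least 5 FPKM at E11.5, *Tmem163* was 45th from the strongest fall, *Cdkn1a* 68th, *Calb2* 102nd and *Trp73* 239th.

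Because FPKM is scaled by transcript length, members can also be compared within a library, where an error in library scaling cancels. *Calb2* stood at 2.01 and 1.39 times *Trp73* in the 2 libraries at E11.5, at 1.27 and 1.10 times at E13.5, and at 0.974 and 1.03 times at E15.5. *Tmem163* stood at 1.99 and 1.42, then 0.812 and 0.718, then 0.374 and 0.531 times *Trp73*. *Cdkn1a* stood at 1.11 and 0.787, then 0.706 and 0.307, then 0.229 and 0.101 times *Trp73*. All 3 ratios were thus lower at each later stage, without overlap between the libraries of different stages.

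*Trp73* itself lost ground to *Reln*, from 0.431 and 0.483 times the *Reln* level at E11.5 to 0.103 and 0.0641 times at E13.5. At E15.5 the ratio was 0.105 and 0.0591, and these libraries overlapped with those of E13.5, whereas both stages lay below E11.5. *Cdkn1a* was furthest from *Reln* at E15.5, at 0.024 and 0.00596 times its level.

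**Figure D2:**
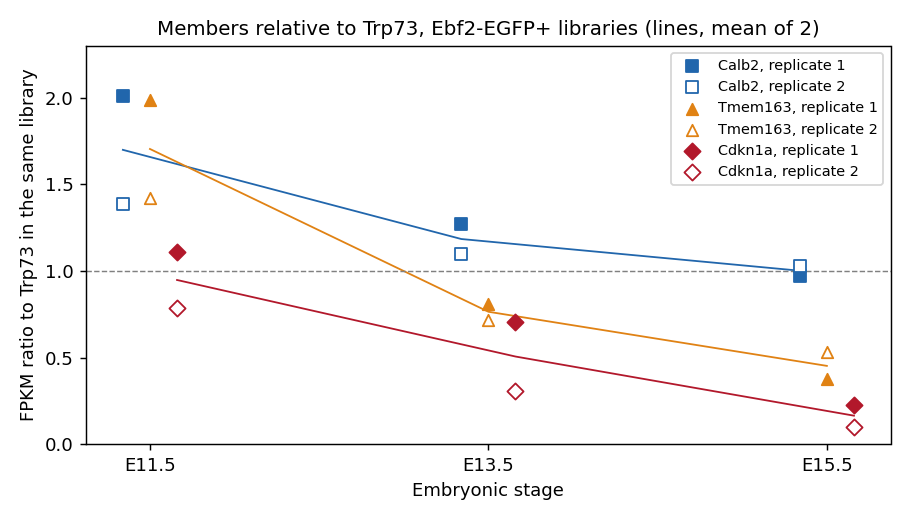
Ratio of *Calb2*, *Tmem163* and *Cdkn1a* to *Trp73* in FPKM within each Ebf2-EGFP+ library, by stage, with filled symbols for replicate 1, open symbols for replicate 2 and lines through the means. The ratio of *Calb2* to *Trp73* went from 2.01 and 1.39 at E11.5 to 0.974 and 1.03 at E15.5, and that of *Cdkn1a* to 0.229 and 0.101.

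The other CR markers placed these patterns. Of the 14 listed CR markers that were not members, 11 fell from E11.5 to E13.5 in Ebf2-EGFP+ cells (limma, Benjamini-Hochberg adjusted p under 0.05 over all genes), beside 36.1% of all listed genes, and 1 rose, beside 21.8%. The median log2 difference of the 14 was -2.09, against -0.20 over all genes. With median-of-ratios scaling 10 fell and 1 rose, and 48.2% of all calls in this comparison were rises, against 37.6% without it. The marker that rose was *Reln* (0.997, adjusted p = 0.0208), and *Tbr1* and *Ndnf* did not pass the test. The largest falls were in *Ebf2* (-3.13, adjusted p = 2.13e-06), whose regulatory sequence drives EGFP in this line, and its relative *Ebf1* (-3.04, adjusted p = 8.15e-07).

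From E13.5 to E15.5, 10 of the 14 markers rose, beside 24.6% of all genes, and 1 fell, beside 17.3%. *Ndnf*, a secreted protein of superficial cortical neurons, rose the most (4.47, adjusted p = 6.68e-05), and *Lhx5*, a LIM homeobox factor of early CR neurons, followed (2.26, adjusted p = 5.98e-06). *Lhx5* had a dip like that of *Trp73* and *Calb2*, at 15.95% of its E11.5 mean at E13.5 and 92.3% at E15.5. *Tbr1*, a T-box factor of early-born neurons, was the marker that fell (-0.71, adjusted p = 0.0136).

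**Figure D3:**
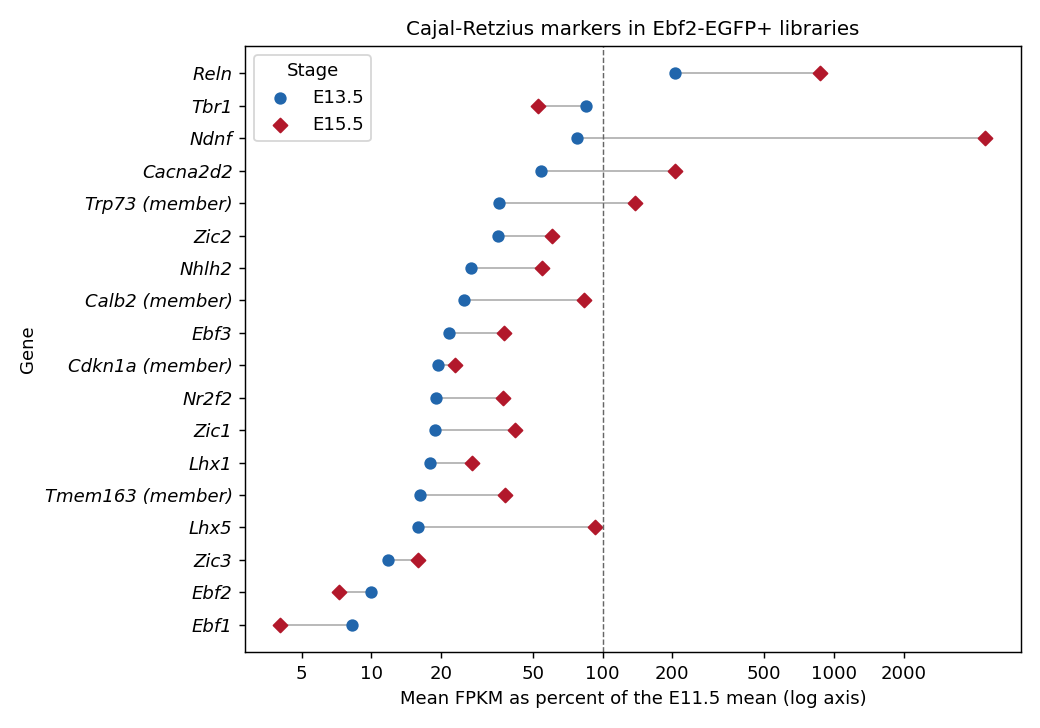
Mean FPKM in Ebf2-EGFP+ libraries at E13.5 (circles) and E15.5 (diamonds) as a percentage of the E11.5 mean, on a log axis, for the 18 listed CR markers ordered by their E13.5 value. The members stood between 16.2% and 35.7% at E13.5, and at E15.5 they ran from 23.1% for *Cdkn1a* to 138.6% for *Trp73*.

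Genes of other cell types moved in the same Ebf2-EGFP+ libraries. The summed level of 10 cortical plate genes was 283 to 338 FPKM at E11.5, 989 to 993 FPKM at E13.5 and 754 to 1114 FPKM at E15.5. From E11.5 to E13.5, 6 of the 10 rose by limma, beside 21.8% of all genes, and 4 fell, beside 36.1%. *Neurod6*, a neurogenic factor of projection neurons, went from 69.0 and 97.0 FPKM to 472 and 436 FPKM. It was still at 369 and 283 FPKM at E15.5, where *Trp73* was at its highest. The Ebf2-EGFP- libraries of E15.5 held 377 and 342 FPKM of *Neurod6* and 891 to 1034 FPKM of the cortical plate genes. These levels thus did not separate the populations at E15.5, where the study describes the Ebf2-EGFP+ cells as CR neurons. In Ebf2-EGFP+ libraries the 8 listed subplate genes summed to 445 to 493, 510 to 523 and 353 to 410 FPKM at the 3 stages. The 10 radial glia genes went from 422 to 447 FPKM at E11.5 down to 209 to 232 and 92.3 to 156.4 FPKM, and the 9 listed thalamus or hem genes from 112 to 123 FPKM down to 30.1 to 37.7 and 22.7 to 36.7 FPKM. The part of these genes' cells in the lower E13.5 levels of the members was not tested.

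Between the populations, the level of all 4 members was higher at each stage in Ebf2-EGFP+ cells. On the log2 scale the difference was smallest at E13.5 for each gene. The ratio of means was also smallest at E13.5 for *Cdkn1a* and *Tmem163*, but at E11.5 for *Trp73* and at E15.5 for *Calb2*. The courses of the genes were not compared by a test. The table lists genes that the authors chose for this very difference, so the p-values here are not independent of that choice. Among all listed genes, 36.8%, 32.1% and 25.8% were called higher at the 3 stages in turn and 44.9%, 43.5% and 31.6% lower, and for 42.5%, 39.1% and 34.7% the populations did not overlap with Ebf2-EGFP+ on top.

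*Trp73* showed a log2 difference of 4.25 at E11.5 (limma adjusted p = 2.89e-08), 3.51 at E13.5 (adjusted p = 1.42e-06) and 5.03 at E15.5 (adjusted p = 3.3e-08), each with a standard error of 0.19. As a ratio of mean FPKM the difference was 39.9-fold, 68.6-fold and 94.5-fold, and the last was 163.5-fold without Ebf2-EGFP- E15.5 replicate 1. The 2 scales order E11.5 and E13.5 differently because *Trp73* was under 1 FPKM in every Ebf2-EGFP- library, where adding 1 before the logarithm shrinks a difference.

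*Cdkn1a* differed by 3.79 on the log2 scale at E11.5 (limma adjusted p = 2.05e-06), by 1.61 at E13.5 (adjusted p = 0.00124) and by 1.80 at E15.5 (adjusted p = 0.001), with a standard error of 0.34. Its ratio of means was 22.8-fold at E11.5 and 5.09-fold and 5.29-fold later, and the E13.5 ratio was 2.94-fold without Ebf2-EGFP+ E13.5 replicate 1. On the log2(FPKM + 1) scale its difference was the smallest of the 4 at each stage, while at E13.5 the ratio of means was smaller for *Tmem163* (5.002-fold). The E13.5 ranges with 1 library left out, 1.06 to 2.17 for *Cdkn1a* and 1.69 to 2.04 for *Tmem163*, overlapped.

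*Calb2* had the largest difference at E11.5, 5.62 on the log2 scale (limma, standard error 0.21, adjusted p = 1.51e-08) or 290.4-fold in mean FPKM. It was 3.6 at E13.5 (adjusted p = 1.42e-06) and 3.96 at E15.5 (adjusted p = 3.66e-07). In mean FPKM the ratio was 49.3-fold and then 22.6-fold, so that the scales order the later stages differently. The E13.5 ratio rested on unlike Ebf2-EGFP- libraries, and was 106.7-fold without replicate 1 and 32.1-fold without replicate 2 of that group.

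*Tmem163* differed by 4.98 at E11.5 (limma, standard error 0.25, adjusted p = 5.66e-08), 1.86 at E13.5 (adjusted p = 6.13e-05) and 2.68 at E15.5 (adjusted p = 8.3e-06). The ratio of means was 65.9-fold, 5.002-fold and 9.002-fold. Of the 4 genes it had the largest loss of difference from E11.5 to E13.5, -3.11 on the log2 scale (standard error 0.36), against -2.18 for *Cdkn1a*, -2.02 for *Calb2* and -0.75 for *Trp73*, values that contain the contrast on which the genes were chosen and carry no test.

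**Figure D4:**
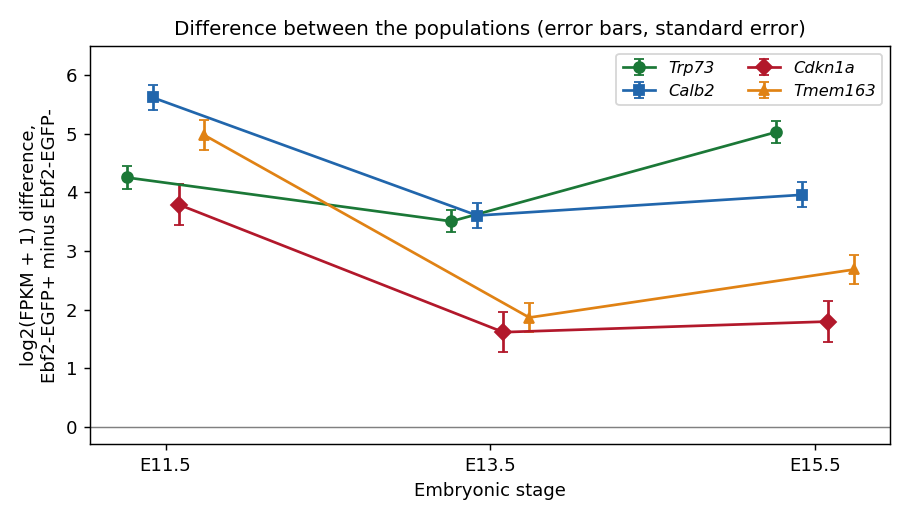
Difference in log2(FPKM + 1) between Ebf2-EGFP+ and Ebf2-EGFP- cells at each stage for the 4 members, with the standard error of the fit as error bars. *Calb2* was highest at E11.5 (5.62), *Trp73* at E15.5 (5.03), and *Cdkn1a* was lowest at each stage (3.79, 1.61 and 1.80).

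In Ebf2-EGFP- cells, whose stage changes played no part in the choice of members, the calls differed between the genes. Their courses were not compared by a test. From E11.5 to E13.5 *Trp73* fell, from E13.5 to E15.5 *Calb2* rose, and over the whole span from E11.5 to E15.5 *Calb2* and *Tmem163* rose. *Cdkn1a* passed no test between any stages. At E13.5 against E11.5, 33.5% of all listed genes were called lower and 26% higher. At E15.5 against E13.5 the shares were 34.8% and 28.8%. Between neighbouring stages the members were thus called no more often than all listed genes, in either direction. At E15.5 against E11.5 the shares were 47.6% and 37.7%, beside 2 of the 4 members called higher.

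*Trp73* measured 0.898 and 0.847 FPKM in Ebf2-EGFP- libraries at E11.5, 0.172 and 0.191 FPKM at E13.5, and 0.726 and 0.295 FPKM at E15.5. The E13.5 libraries were the lowest, the E11.5 libraries the highest, and no stages overlapped. *Trp73* was lowest at E13.5 in Ebf2-EGFP+ cells as well, and its Ebf2-EGFP- mean was 2.51%, 1.46% and 1.06% of the Ebf2-EGFP+ mean at the 3 stages. Whether the courses in the populations are independent was not tested. The fall to E13.5 was -0.66 on the log2 scale (limma, standard error 0.19, adjusted p = 0.0103), and it missed the threshold without Ebf2-EGFP- E11.5 replicate 1 (adjusted p = 0.0559). The later differences did not pass, with 0.34 from E13.5 to E15.5 (adjusted p = 0.133) and -0.32 from E11.5 to E15.5 (adjusted p = 0.126), although both passed with a pseudocount of 0.1 (1.02 and -0.77, adjusted p = 0.012 and 0.0317), which compresses low levels less.

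*Calb2* measured 0.253 and 0.1496 FPKM at E11.5, 0.460 and 0.138 FPKM at E13.5, and 2.29 and 2.02 FPKM at E15.5 in Ebf2-EGFP- libraries. Both E15.5 libraries stood above all earlier ones, which overlapped among themselves. The rise from E13.5 to E15.5 was 1.29 (limma, standard error 0.21, adjusted p = 0.000553) and that from E11.5 to E15.5 was 1.39 (adjusted p = 6.78e-05), a 10.7-fold ratio of means. The E13.5 level was 0.10 above E11.5 (adjusted p = 0.685).

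*Tmem163* measured 0.967 and 0.817 FPKM at E11.5, 2.26 and 1.55 FPKM at E13.5, and 2.47 and 2.49 FPKM at E15.5 in Ebf2-EGFP- libraries. Each stage lay above the one before without overlap. The rise from E11.5 to E15.5 was 0.88 (limma, standard error 0.25, adjusted p = 0.0062), a 2.78-fold ratio of means, and both E15.5 libraries lay above both E11.5 libraries for 41.8% of all genes. The step to E13.5, 0.61, narrowly missed the threshold (adjusted p = 0.0551) and passed with a pseudocount of 0.1 (1.00, adjusted p = 0.0112) and with median-of-ratios scaling (0.65, adjusted p = 0.0412). The step from E13.5 to E15.5 was 0.27 (adjusted p = 0.359).

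*Cdkn1a* measured 1.70 and 1.17 FPKM at E11.5, 1.06 and 1.45 FPKM at E13.5, and 1.84 and 1.01 FPKM at E15.5 in Ebf2-EGFP- libraries. All 3 stages overlapped. The differences were -0.11 from E11.5 to E13.5, 0.09 from E13.5 to E15.5 and -0.02 over the whole span, each within its standard error of 0.34 (limma adjusted p = 0.801, 0.829 and 0.968).

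**Figure D5:**
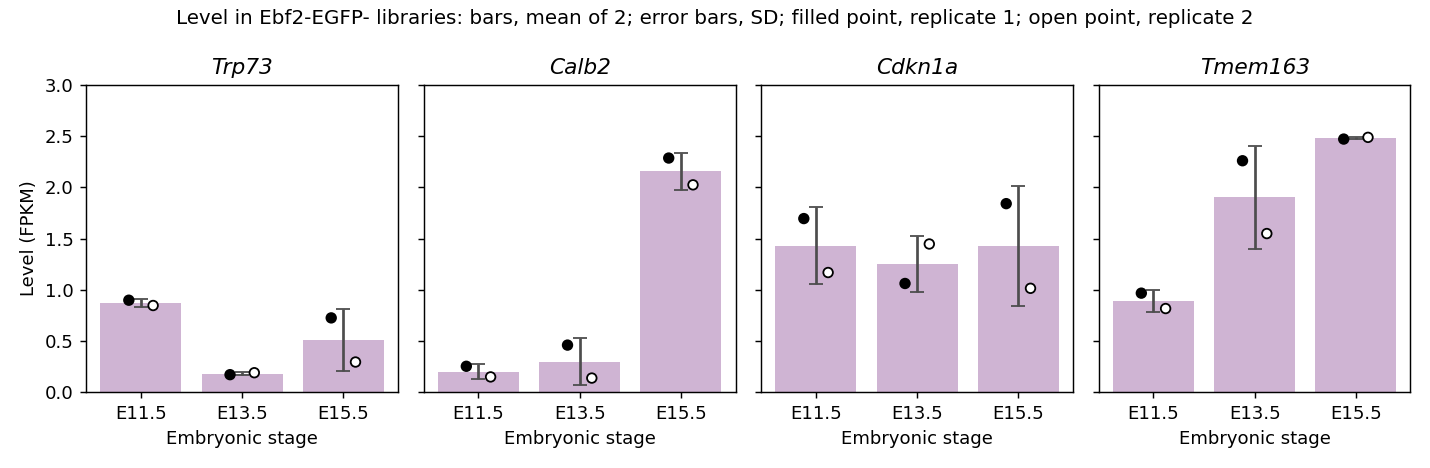
Level in FPKM of each member in the Ebf2-EGFP- libraries, with bars, error bars and points as in the plot of Ebf2-EGFP+ levels but on an axis that ends at 3 FPKM. *Calb2* stood at 2.29 and 2.02 FPKM at E15.5 against at most 0.460 FPKM earlier, *Tmem163* was higher at each later stage, and the *Cdkn1a* libraries overlapped.

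The Ebf2-EGFP- level as a percentage of the Ebf2-EGFP+ level differed between members within the same libraries. For *Trp73* it was 2.51%, 1.46% and 1.06% at the 3 stages, and for *Calb2* it was 0.344%, 2.03% and 4.43%. By replicate, the *Trp73* share at E13.5 and E15.5 was 1.33% and then 1.73% in replicate 1 but 1.59% and then 0.540% in replicate 2, so its later course differed between replicates, while the *Calb2* share was higher at each later stage in both. For *Tmem163* it was 1.52%, 19.99% and 11.1%, and for *Cdkn1a* 4.38%, 19.7% and 18.9%. At E13.5 the *Cdkn1a* share was 11.7% in replicate 1 and 39.3% in replicate 2, as its Ebf2-EGFP+ libraries differed there. The 17 ganglionic eminence or interneuron genes, a class that includes calretinin cells, summed to 306 to 381, 193 to 255 and 173 to 238 FPKM in Ebf2-EGFP- libraries at the 3 stages and to at most 35.9 FPKM in Ebf2-EGFP+ libraries. Single genes of this class went both ways between E13.5 and E15.5, where *Calb2* rose. By limma 3 of the 17 rose (*Dlx1*, *Lhx6* and *Npy*) and 5 fell, beside 28.8% and 34.8% of all genes. Both of these counts were below the background. From E11.5 to E15.5, 4 rose (*Lhx6*, *Sst*, *Npy* and *Htr3a*) and 12 fell, beside 37.7% and 47.6% of all genes. Other classes also moved in the Ebf2-EGFP- libraries. The cortical plate genes went from 164 to 168 FPKM at E11.5 up to 567 to 679 and 891 to 1034 FPKM, the direction of *Tmem163*. The radial glia genes went from 1432 to 1739 FPKM at E11.5 to 478 to 859 FPKM at E15.5, and 4 listed globin and erythroid genes from 1306 to 2752 FPKM to at most 23.2 FPKM. The part of these classes in the stage changes of the members was not tested.

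The order of the 6 groups followed from these values. For *Trp73* it ran from Ebf2-EGFP+ E15.5 through E11.5 to E13.5, then Ebf2-EGFP- E11.5, E15.5 and E13.5, and no neighbours overlapped. For *Calb2* the Ebf2-EGFP+ E11.5 and E15.5 groups shared the top, followed by Ebf2-EGFP+ E13.5 and Ebf2-EGFP- E15.5, with the Ebf2-EGFP- E13.5 and E11.5 groups overlapping at the bottom. For *Cdkn1a* only Ebf2-EGFP+ E11.5 stood alone at the top, above the overlapping Ebf2-EGFP+ E15.5 and E13.5 groups and the 3 overlapping Ebf2-EGFP- groups. For *Tmem163* it ran from Ebf2-EGFP+ E11.5, E15.5 and E13.5 to Ebf2-EGFP- E15.5, E13.5 and E11.5, with no overlap between neighbours.

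Some genes followed each member closely over the 12 libraries, ranked by Pearson's r of log2(FPKM + 1) among 3913 genes with a mean of at least 5 FPKM in a group. These r values describe libraries that share population and stage, and they carry no p-value. A high r over the 12 libraries need not mean a like course over stages. Within the 6 Ebf2-EGFP+ libraries, r with *Trp73* was 0.696 for *Kcnj5* but 0.995 for *Ptprn*. With *Calb2* it was 0.763 for *Pappa2* but 0.967 for *Nap1l3*. Nearest to *Trp73* were *1500016L03Rik* (r = 0.986), *Nap1l3* (0.982), the potassium channel gene *Kcnj5* (0.977), *Calb2* (0.970) and the secretory granule gene *Ptprn* (0.966). Nearest to *Calb2* were *Nap1l2* (0.980) and *Nap1l3* (0.979), which encode nucleosome assembly proteins, then *Pappa2* (0.975), *1500016L03Rik* (0.973) and *Kcnj5* (0.971).

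Among the nearest to *Cdkn1a* were the LIM homeobox gene *Lhx1* (0.983), *Mtus2* (0.969), *Fam212b* (0.964) and the homeobox gene *Meis3* (0.963). Nearest to *Tmem163* were the kinase anchor gene *Akap6* (0.989), the calcineurin regulator *Rcan2* (0.979), *Mtus2* (0.976), the bHLH factor *Nhlh2* (0.973) and *Tmem200a* (0.968). The nearest lncRNA was *Lhx1os* for *Trp73* (0.968), *Gm16701* for *Calb2* (0.956), *Gm17322* for *Cdkn1a* (0.950) and *Gm28050* for *Tmem163* (0.958). *Trp73* and *Calb2* thus shared 3 of their nearest genes, and *Cdkn1a* and *Tmem163* shared *Mtus2*.

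Between the members, r over 12 libraries was 0.970 for *Trp73* with *Calb2*, 0.967 for *Calb2* with *Tmem163*, 0.936 for *Cdkn1a* with *Tmem163*, 0.924 for *Trp73* with *Tmem163*, 0.883 for *Calb2* with *Cdkn1a* and 0.857 for *Trp73* with *Cdkn1a*. Within the 6 Ebf2-EGFP+ libraries it was 0.919 for *Trp73* with *Calb2* and 0.339 for *Trp73* with *Cdkn1a*. The values within Ebf2-EGFP+ cells are those on which the genes were chosen. By Spearman's rho over the 12 libraries the lowest pair was *Trp73* with *Tmem163* (0.755), against 0.839 for *Trp73* with *Cdkn1a*.

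Of 27 genes of the p53 family and its regulators, 10 were listed, and neither *Trp53* nor *Trp63* was among them. Of the 9 besides *Trp73*, Ebf2-EGFP+ cells had 2 at a higher and 4 at a lower level at E11.5, 2 and 6 at E13.5, then 1 and 7 at E15.5. Of all listed genes, 36.8%, 32.1% and 25.8% were higher and 44.9%, 43.5% and 31.6% lower, so the count of lower genes at E11.5 was near the background. The median log2 difference of the 9 was -0.28, -0.64 and -0.59, against -0.19, -0.19 and -0.11 over all genes. *Ppp1r13b*, which encodes a p53-binding partner of the ASPP group, was higher at each stage (1.41, 0.94 and 0.86, limma adjusted p = 1.84e-05, 0.000517 and 0.00157), as *Trp73* was. *Yap1*, a coactivator that binds p73, was lower at each stage (-3.22, -3.30 and -2.06, adjusted p = 2.49e-06, 6.15e-06 and 0.000158), and so was the checkpoint kinase gene *Chek1* (-2.21 at E11.5, adjusted p = 3.43e-06).

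In Ebf2-EGFP+ cells 5 of these 9 fell from E11.5 to E13.5 by limma, beside 36.1% of all genes, and 0 rose, beside 21.8%, and at an unadjusted p under 0.05 the counts were 6 and 0. *Hipk2*, a kinase of p53 and p73, fell by 1.34 on the log2 scale (limma adjusted p = 2.49e-05). From E13.5 to E15.5, where *Trp73* was 1.86 higher, *Ppp1r13b* was the gene that rose (0.67, adjusted p = 0.0101), while 5 fell, beside 17.3% of all genes, among them *Mdm2*, the ubiquitin ligase of p53 (-1.26, adjusted p = 0.000131).

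Of 43 target genes of the p53 family, 24 were listed. Of the 23 besides *Cdkn1a*, 12 were at a higher and 5 at a lower level in Ebf2-EGFP+ than in Ebf2-EGFP- cells at E11.5, with a median of 0.59 against -0.19 over all genes. At E13.5 the counts were 8 and 5, and at E15.5 they were 9 and 5. The medians there were 0.16 and 0.23, against -0.19 and -0.11 over all genes. Of all listed genes, 36.8%, 32.1% and 25.8% were higher at the 3 stages and 44.9%, 43.5% and 31.6% lower. The count of higher targets at E13.5 was thus near the background. *Trp53inp1*, a stress-induced p53 target, was 1.90 higher at E11.5 (limma adjusted p = 1.13e-06) and *Trp53i11* 1.76 higher (adjusted p = 1.02e-06). *Hes1*, a Notch effector of radial glia that the list also held, was lower there by a log2 difference of -3.50 (adjusted p = 2.37e-06).

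Over stages in Ebf2-EGFP+ cells, 13 of the 23 targets fell from E11.5 to E13.5, beside 36.1% of all genes, and 5 rose, beside 21.8%, with a median of -0.60 against -0.20 over all genes. *Gadd45a*, a DNA-damage-response gene, fell by 1.56 on the log2 scale (limma adjusted p = 0.000116) and the kinase gene *Plk3* fell by 1.47 (adjusted p = 1.23e-05), both in the direction of *Cdkn1a*. *Bcl6*, a transcriptional repressor of cortical neurogenesis, rose by 1.35 (adjusted p = 5.15e-05) and *Igfbp3*, an insulin-like growth factor binding protein, rose by 1.33 (adjusted p = 0.000163). From E13.5 to E15.5, 8 rose and 5 fell, beside 24.6% and 17.3% of all genes. *Igfbp3* rose by a further 2.9996 (adjusted p = 3.9e-06) and the pro-apoptotic gene *Bbc3* by 1.39 (adjusted p = 0.00058), while *Gadd45a* fell by 1.19 again (adjusted p = 0.00135). The count of rising targets from E11.5 to E13.5 and that of falling targets from E13.5 to E15.5 were near the background. In the later interval *Trp73* was 3.88-fold higher and the *Cdkn1a* libraries overlapped. A link between *Trp73* and the targets was not tested.

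Of 8 CDK inhibitor genes, 4 were listed. *Cdkn1c*, which encodes p57, was higher in the Ebf2-EGFP+ population at E11.5 (0.81, limma adjusted p = 0.00202) and E13.5 (0.87, adjusted p = 0.00166). Its level in these cells fell by E13.5 (-0.50, adjusted p = 0.0423, not past the threshold with median-of-ratios scaling), where *Cdkn1a* was 2.29 lower. *Cdkn2c* and *Cdkn3* were lower at each stage in the Ebf2-EGFP+ population, unlike *Cdkn1a* (at E11.5 -1.14, adjusted p = 0.000767, and -1.21, adjusted p = 0.000224). Among 28 listed cyclin, CDK, E2F and Rb genes, 24, 27 and 22 were lower in Ebf2-EGFP+ cells at the 3 stages. Of all listed genes, 44.9%, 43.5% and 31.6% were lower. The medians of the 28 were -1.48, -1.44 and -1.03, against -0.19, -0.19 and -0.11 over all genes. *Rb1*, the retinoblastoma gene, was the one that was higher, at E11.5 (1.05, adjusted p = 2.29e-05). At E15.5 *Rb1* was among the lower genes.

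In Ebf2-EGFP+ cells 18 of these 28 cycle genes fell from E11.5 to E13.5, beside 36.1% of all genes, and 17 fell from E13.5 to E15.5, beside 17.3%. Their medians were -0.82 and -0.62, against -0.20 and 0.03 over all genes. The calls shared 13 genes, while 5 fell in the first interval alone and 4 in the second alone by this threshold, a split that was not tested. *Ccnd1*, the cyclin D1 gene, fell by 2.72 on the log2 scale in the first interval (limma adjusted p = 1.3e-05), and *Ccnb1*, the cyclin B1 gene, fell by 2.59 in the second (adjusted p = 0.000134). *Ccnd3* rose in the second interval (0.83, adjusted p = 0.0115).

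Of 49 genes for EF-hand calcium buffers and sensors, 26 were listed, and of the 25 besides *Calb2*, 12, 16 and 12 were at a higher level at the 3 stages in Ebf2-EGFP+ cells and 5, 6 and 4 at a lower one. Of all listed genes, 36.8%, 32.1% and 25.8% were higher and 44.9%, 43.5% and 31.6% lower. The medians of the 25 were 0.25, 0.73 and 0.49, against -0.19, -0.19 and -0.11 over all genes. Within Ebf2-EGFP+ cells, 10 rose by E13.5 and 6 fell, beside 21.8% and 36.1% of all genes, with a median of 0.22 where *Calb2* was at -1.91. *Hpca*, a neuronal calcium sensor, rose by 2.64 (limma adjusted p = 2.66e-06) and *Cabp1* by 2.17 (adjusted p = 2.83e-05). From E13.5 to E15.5, 10 rose and 2 fell, beside 24.6% and 17.3% of all genes, and *Kcnip2*, a calcium-sensing potassium channel subunit, rose by 3.03 (adjusted p = 1.23e-05), beside 1.64 for *Calb2*.

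Of 30 genes for zinc transport and buffering, 10 were listed. Of the 9 besides *Tmem163*, the Ebf2-EGFP+ cells had 3 at a higher and 6 at a lower level at E11.5, by limma, and at E13.5 and E15.5 the lower ones numbered 5 and 6 and the higher ones 0, the same counts as at an unadjusted p under 0.05. Over all listed genes 44.9%, 43.5% and 31.6% were lower and 36.8%, 32.1% and 25.8% higher, and the medians of the 9 were -1.29, -0.57 and -0.68 against -0.19, -0.19 and -0.11. With median-of-ratios scaling 2 were higher and 4 lower at E13.5. *Slc30a10*, a zinc and manganese exporter, was higher at E11.5 (1.31, adjusted p = 0.000151). It was not called at E13.5 (-0.26, adjusted p = 0.293) and was lower at E15.5 (-1.39, adjusted p = 0.000267), unlike *Tmem163*. The metallothionein genes *Mt2* (-3.45, adjusted p = 7.56e-05) and *Mt1* (-3.20, adjusted p = 2.15e-05) were lower at E11.5. In Ebf2-EGFP+ cells *Slc30a10* rose by 1.89 from E11.5 to E13.5 (adjusted p = 2.89e-05), where *Tmem163* was 2.50 lower, and fell by 1.72 from E13.5 to E15.5 (adjusted p = 0.000175), where *Tmem163* was 1.09 higher.

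Near the members, 1 listed lncRNA lay within 100 kb, *2900009J06Rik*, 74068 bases from *Tmem163*. It measured 2.04 and 2.02, then 4.41 and 3.31, then 16.2 and 9.78 FPKM in Ebf2-EGFP+ libraries at the 3 stages, and 0.796 and 0.651, 2.32 and 2.01, and 6.96 and 5.86 FPKM in Ebf2-EGFP- libraries. It was higher at each later stage in both populations without overlap, which *Tmem163* matched in Ebf2-EGFP- cells and did not match in Ebf2-EGFP+ cells.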

How the data were processed

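Libraries were grouped by the stage and population in their labels, and the study describes 2 biological replicates of each group. It does not say whether same-numbered libraries of both populations came from the same sort. The authors aligned reads to mm10 with TopHat2 2.0.8b and deposited FPKM from Cufflinks 2.2.0 for 4859 coding genes and 200 lncRNA transcripts, both limited to features they had selected. The same tables hold fold changes and significance values of the authors' own test, which were not used. FPKM were analysed as log2(FPKM + 1), a scale that understates changes of low genes, in R 4.3.3 with limma 3.58.1, in 1 fit of all 12 libraries as 6 groups without covariates and with trended moderation. Two-sided p-values were Benjamini-Hochberg adjusted over all 4859 genes within a comparison, with a threshold of 0.05. Its code was first tested on simulated data. Deviations of same-numbered libraries of both populations from their group means correlated at 0.431, 0.534 and 0.431 at the 3 stages, so the shared replicate numbers in the labels were taken as pairs for an alternative fit. Depth per library is unknown here, since at most 51.1% of low FPKM values lay on a grid of whole fragments (within 1%). Precision is given as the spread of 2 libraries and as limma's standard error.

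The members, the gene lists and the tests were chosen with earlier results of these data known. Named genes were the 4 members, the 5 genes and the 1 lncRNA most like each member, and, of each list, up to 2 called genes in each direction per comparison with the largest difference, while levels could be given for genes of other cell types. Not every gene under the rule is named, and 1 is not reported here. A single fit of all groups was preferred because it shares 1 estimate of the spread. Alternatives were a pseudocount of 0.1 or 0.01, median-of-ratios scaling, genes with a mean of at least 1 FPKM, untrended moderation, fitting the compared groups alone, the replicate block, leaving out each library and a 2-fold change beside the p-value. Gene positions came from GENCODE M21, promoters from RefSeq (GRCm38.p6).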

Additional observations from a re-analysis of the deposited data

Results flagged for a closer look

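The libraries of *Trp73* and *Tmem163* lay in opposite orders in the populations between the same stages, and the difference was not tested because it holds the contrast on which the members were chosen. For *Tmem163*, both E13.5 libraries were below both E11.5 libraries in Ebf2-EGFP+ cells (a log2 difference of -2.50) and above them in Ebf2-EGFP- cells (0.61, limma adjusted p = 0.0551, which missed the threshold). The same held at E15.5 against E11.5, with -1.41 in Ebf2-EGFP+ and 0.88 in Ebf2-EGFP- cells (adjusted p = 0.0062). For *Trp73*, both E15.5 libraries were above both E11.5 libraries in Ebf2-EGFP+ cells (0.45) and below them in Ebf2-EGFP- cells (-0.32, adjusted p = 0.126, not past the threshold). The *Trp73* values in Ebf2-EGFP- cells were all under 1 FPKM. Groups of 2 libraries did not allow a single library to be judged as standing apart.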

How the results depend on the processing

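All 12 population differences of the members kept their direction and stayed past the threshold under every alternative run, the replicate block and each left-out library included. With the replicate block, which pairs same-numbered libraries, the *Calb2* difference at E11.5 was 5.62 with a standard error of 0.16 in place of 0.21, and the pairing changed no call of a member and no count of calls by over 1.5 times.

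In Ebf2-EGFP- cells the calls were less settled, and the cause was not tested. The step of *Tmem163* from E11.5 to E13.5 passed the threshold with a pseudocount of 0.1 or 0.01 (1.00 and 1.07), with median-of-ratios scaling (0.65) and in the fit of the compared groups only (0.61), and ranged from 0.43 to 0.79 when 1 library was left out, passing without either Ebf2-EGFP+ E15.5 library. *Trp73* passed with the pseudocounts of 0.1 and 0.01 from E13.5 to E15.5 (1.02 and 1.31) and from E11.5 to E15.5 (-0.77 and -0.90), and the latter ranged from -0.53 to -0.12 with 1 library left out, passing without Ebf2-EGFP- E15.5 replicate 1. Its fall to E13.5 ranged from -0.68 to -0.64 and was lost without Ebf2-EGFP- E11.5 replicate 1. A 2-fold requirement removed that fall (-0.66) and the rise of *Tmem163* from E11.5 to E15.5 (0.88) by construction.

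Direction turned only where no test passed. *Cdkn1a* in Ebf2-EGFP- cells turned from E11.5 to E15.5 with median-of-ratios scaling (0.14), and with 1 library left out it ranged from -0.26 to 0.0506, from -0.16 to 0.34 and from -0.26 to 0.23 over the 3 stage pairs. *Calb2* from E11.5 to E13.5 ranged from -0.0766 to 0.28.

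In Ebf2-EGFP+ cells median-of-ratios scaling moved *Trp73* from E11.5 to E13.5 to -1.20, *Tmem163* to -2.30 and *Trp73* from E11.5 to E15.5 to 0.69, each by more than 1 SD of its replicates and in the same direction. This scaling raised the median of all genes by 0.19, 0.19 and 0.13 in the population comparisons, between E11.5 and E13.5 by 0.16 in Ebf2-EGFP+ and 0.12 in Ebf2-EGFP- cells, and by 0.14 and 0.22 from E11.5 to E15.5.

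Counts of calls over all genes changed by over 1.5 times with a 2-fold requirement, to 1040 higher genes at E11.5, 650 higher and 1165 lower at E13.5 and 538 higher and 652 lower at E15.5 between the populations. In Ebf2-EGFP- cells they became 537 higher and 560 lower from E11.5 to E13.5 and 441 higher and 575 lower from E13.5 to E15.5. With 1 library left out, the lower calls ranged from 1050 (without Ebf2-EGFP- E13.5 replicate 2) to 1729 in the first interval and from 984 (without Ebf2-EGFP- E13.5 replicate 1) to 1729 in the second, where Ebf2-EGFP- E15.5 replicate 2 left 1118. The unknown depth and 2 libraries per group limit what can be said of levels under 1 FPKM.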
